A study of Mus musculus with 3 samples.

Results

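Histone genes were examined in the polyA-selected RNA of mouse embryonic fibroblasts (MEFs), connective tissue cells grown from embryos. All genes whose symbol begins with Hist1h to Hist4h, H2af, H3f3 or H1f were taken from the count table, which gave 82 of the 21782 genes listed. Of these, 68 belong to the Hist1 to Hist4 loci and are called clustered genes here, and 14 are variant genes of the H1f, H2af and H3f3 series. The study concerns cohesin, and its RNA-seq samples are 3 libraries of 1 condition, so that clustered and variant genes were compared within each library and no treatment or genotype was compared. The MEFs were WT, came from E12.5 embryos and were grown without synchronization in DMEM with 20% FBS and 5% CO2, with 1 library from each of 3 clones. No allele or agent beyond WT is named in the labels, and a clone cannot be told apart from its culture or its library.

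Histones package DNA into nucleosomes, and their genes are of different kinds. Most clustered genes are replication-dependent, though the set also holds testis histone genes and a pseudogene. Replication-dependent genes are transcribed mostly in S phase, and most lack introns. Their mRNAs usually end a few bases after a hairpin that is bound by the stem-loop binding protein SLBP, with no polyA tail. The variant genes are mostly transcribed throughout the cell cycle and in cells that have stopped dividing, and give ordinary polyadenylated mRNAs, among them H3.3, H2A.Z, macroH2A and the linker histone H1.0. Selection on oligo-dT beads enriches RNA with a polyA tail, so a count here is not a measure of all RNA of a gene. Counts were also found on genes of untailed RNAs, as given below. Most of these were on Malat1, which has an A-rich end, and many of the other RNAs lie inside other genes. Whether the counts came from tailed or untailed RNA was not tested.

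The libraries held 25261357, 22594316 and 24791198 counts in clones 1, 2 and 3, and 3 counts, the most that a count of 0 allows, were 0.121, 0.133 and 0.119 CPM, where CPM are counts per 1000000 counts of the scaled library. The biological coefficient of variation over 12218 genes was 0.187. The fibroblast markers Col1a1 and Fn1 averaged 27713 ± 3778 and 27279 ± 8001 CPM (SD, n = 3), and all 12 fibroblast markers were at 1 CPM or more on average, with Dcn and Lum the lowest at 7.73 ± 2.62 and 2.03 ± 1.19 CPM. All 12 macrophage markers were highest in clone 2, where their summed level was 1954 CPM against 410 and 341 CPM in clones 1 and 3, from Lyz2, with 13074 counts in clone 2, down to Ptprc, with 480. The part of these cells in the histone values was not tested.

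Few clustered genes reached 1 CPM in the polyA-selected RNA, and most variant genes did. At 1 CPM or more in every clone were 7 of 68 clustered genes (10.3%) and 10 of 14 variant genes (71.4%), beside 11367 of 21782 genes in the whole table (52.2%). The shares with no count in any clone were alike, at 19.1% of clustered genes, 21.4% of variant genes and 25.2% of all genes listed. Summed over genes, clustered counts were 2301, 1282 and 1553 in clones 1, 2 and 3, and variant counts were 18461, 19722 and 22180. The ranges of these sums did not overlap, and in CPM they were 70.3 ± 19.4 for the clustered genes and 832 ± 77.0 for the variant genes (SD, n = 3).

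Variant genes thus took 88.9% of all histone counts in clone 1 (95% Wilson interval 88.5 to 89.3), 93.9% in clone 2 (93.6 to 94.2) and 93.5% in clone 3 (93.1 to 93.8), with a mean of 92.1% ± 2.76 (SD, n = 3). Clone 1 lay outside the intervals of the other clones. These intervals cover counting error only. By histone class, variants held 99.2% ± 0.354 of H3 counts, 97.9% ± 0.557 of H2A counts and 73.0% ± 7.25 of H1 counts. No H2B or H4 gene falls among the variants under the symbols used, so all counts of these classes were of clustered genes.

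**Figure D1:**
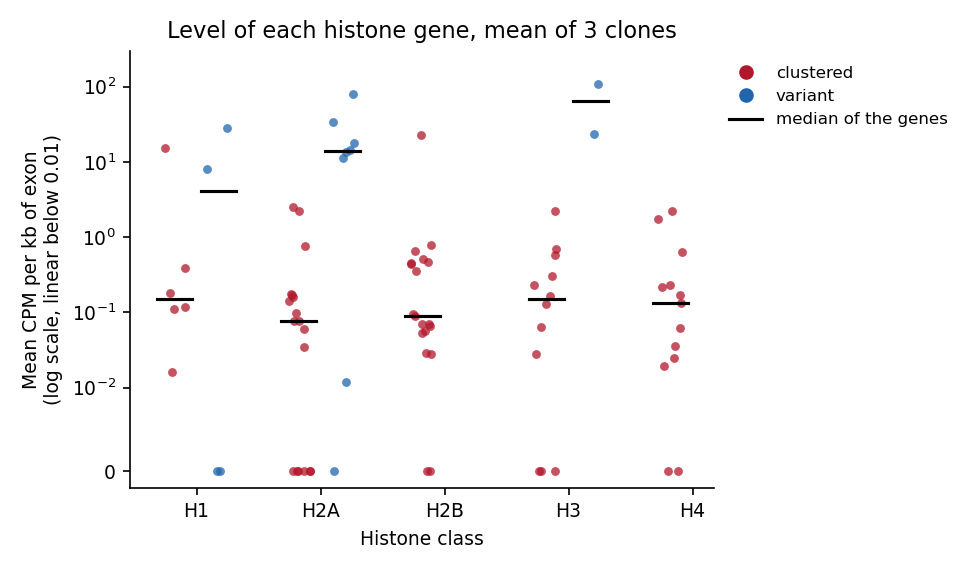
Mean level over 3 clones of each of the 82 histone genes, in CPM per kb of annotated exon (vertical axis, log scale, linear below 0.01), by histone class (horizontal axis), with clustered genes in red, variant genes in blue and a black bar at the median of the genes. In H1, H2A and H3 the variant median lies above the clustered median, while the clustered genes Hist1h2bc (22.5 CPM per kb) and Hist1h1c (15.1 CPM per kb) lie apart from the rest of their classes.

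Per kb of annotated exon, the median variant gene was at 11.6, 14.5 and 14.9 CPM per kb in clones 1, 2 and 3, and the median clustered gene at 0.106, 0.0838 and 0.0928 CPM per kb. The variant median was higher in every clone, by a mean of 7.18 ± 0.35 on the log2 scale (SD, n = 3), or 145-fold. An exact two-sided sign-flip permutation test over the 3 clones gave p = 0.25, the smallest that 3 clones allow. The size of this ratio rests on the many clustered genes near 0: over the genes with more than 3 counts in every clone it was 4.89, and for levels summed over all members it was 2.55, on the log2 scale.

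H3f3b, which with H3f3a encodes the replacement histone H3.3, had the most reads of any histone gene, with 7611, 7203 and 8409 counts in clones 1, 2 and 3. Its level of 107 ± 4.47 CPM per kb of exon was above that of every other histone gene in each clone, but per kb of a single transcript it overlapped with H2afz (127 ± 5.29 and 132 ± 32.2 CPM per kb). H3f3a had 1936, 1853 and 2176 counts, or 23.4 ± 1.17 CPM per kb of exon. Both genes give the same protein of 136 residues, and the ratio of their counts varied little, at 3.89 ± 0.034 (SD, n = 3).

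Of the H2A variants, H2afz encodes H2A.Z and H2afv its close relative H2A.V. H2afz had 2513, 3628 and 4057 counts, with clone 1 below both others, and H2afv had 411, 469 and 437. H2afz is also the variant whose sequence is most shared: 86.1% of the 86-nt stretches of its transcript match another gene or pseudogene of the annotation, with up to 2 mismatches, so its count is uncertain. The macroH2A genes H2afy and H2afy2, which encode H2A proteins with a large additional domain, had 2191, 2180 and 2359 counts and 559, 728 and 956 counts. Per kb of exon H2afy and H2afy2 overlapped, at 13.6 ± 0.629 and 14.2 ± 3.57 CPM per kb, whereas per kb of a single transcript (the one with the longest reading frame) H2afy was 3.32 ± 0.781 times as high.

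H2afx encodes the H2A form that is phosphorylated at DNA breaks, and had 855, 1297 and 1271 counts. H2afj had 882, 727 and 745 counts and was the only variant that was highest in clone 1. The linker histone genes H1f0, which encodes H1.0 and is known to be raised in resting and differentiated cells, and H1fx had 1297, 1374 and 1521 counts and 206, 263 and 248 counts. In order of level per kb of exon, H3f3b was followed by H2afz (79.3), H2afx (34.3), H1f0 (28.1), H3f3a (23.4), H2afj (17.7), H2afy2 (14.2), H2afy (13.6), H2afv (11.2) and H1fx (8.15 CPM per kb). The ranges over clones of H2afx and H1f0, of H2afj and H2afy2, and of H2afy2 and H2afy overlapped, and those of the other neighbours did not. The order depends on the length used. Per kb of a single transcript H2afy (45.3 CPM per kb) lay above H2afx (34.3) with no overlap, and H3f3a (28.9) and H1f0 (28.1) overlapped.

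The 4 remaining variants were at or near 0. H2afy3 had 1 count in clone 3 only, and the germ cell genes H1fnt, H1foo and H2afb1 had none in any clone. Among the clustered genes, the testis histone genes Hist1h1t and Hist1h2aa had 1 count each over the 3 clones, and Hist1h2ba had 10, 0 and 3. Of 8 other germ cell markers, 5 had no count, and Ddx4 was the highest with 1, 2 and 4.

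**Figure D2:**
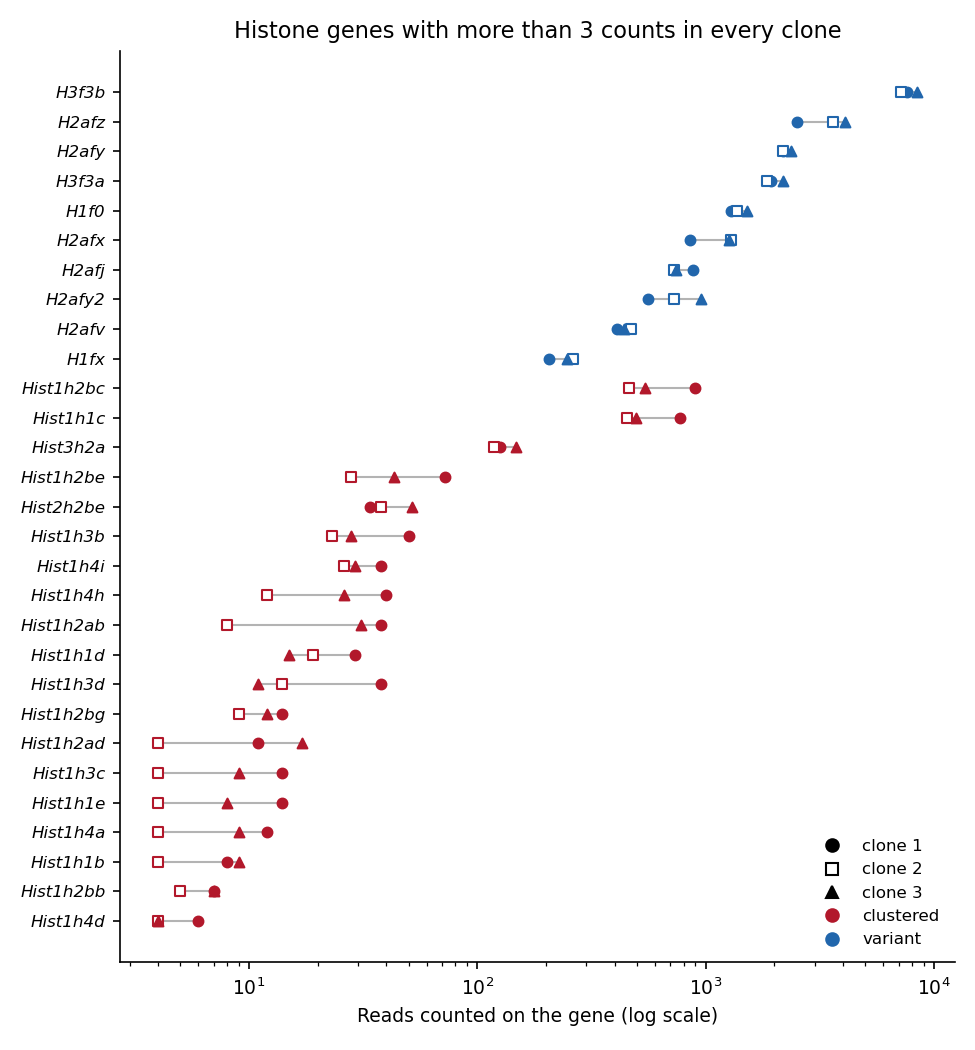
Reads counted in each clone (horizontal axis, log scale; circle, square and triangle for clones 1, 2 and 3) on the 29 histone genes with more than 3 counts in every clone, with 10 variant genes in blue above 19 clustered genes in red. The clustered genes Hist1h2bc and Hist1h1c reach the level of the lower variants, and the other clustered genes lie below every variant drawn.

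Counts of the clustered genes were concentrated in a few genes. Hist1h2bc, an H2B gene, had 894, 464 and 541 counts, and Hist1h1c, which encodes the linker histone H1.2, had 771, 451 and 494. Hist3h2a, an H2A gene outside the large chromosome 13 cluster, had 126, 118 and 147. These 3 genes took 78.2% ± 2.25 of clustered counts (SD, n = 3), and the other 65 together had 510, 249 and 371. For comparison, H3f3b, H2afz and H2afy took 66.5% ± 0.468 of variant counts.

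Hist1h1c was the only clustered gene of its class with a level near that of the H1 variants. H1f0 had 1.68, 3.05 and 3.08 times the counts of Hist1h1c in clones 1, 2 and 3. By class, the clustered counts were 824, 481 and 528 for H1, 201, 140 and 205 for H2A, 1059, 553 and 672 for H2B, 115, 52 and 62 for H3 and 102, 56 and 86 for H4.

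After these came Hist1h2be with 72, 28 and 43 counts, Hist2h2be with 34, 38 and 52, Hist1h3b with 50, 23 and 28, Hist1h4i with 38, 26 and 29, and Hist1h4h with 40, 12 and 26. Hist1h2ab, the H2A gene next in order, had 38, 8 and 31, and Hist1h1d, an H1 gene, had 29, 19 and 15. In the small Hist3 and Hist4 loci other than Hist3h2a, Hist3h2ba had 1, 0 and 2 counts, the pseudogene Hist3h2bb-ps had 1 in each clone and Hist4h4 had 1, 1 and 2. Of all 68 clustered genes, 10 had at least 10 counts in every clone, 9 had more than 3 in every clone but under 10 in at least 1, 12 exceeded 3 counts in some clones only, 24 had 1 to 3 counts at most in any clone, and 13 had no count. The latter 13 (19.1%, beside 25.2% of all genes listed) cannot be told from a level under 3 counts.

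The annotated 3′ ends were compared with the counts, because the mRNA end decides whether a histone RNA carries a tail. A hairpin was searched on the transcript strand after the stop codon as 6 bases that open with GG, a loop of 4 bases that opens with TT, and the exact reverse complement of the first 6. It was found in 44 of 68 clustered genes (64.7%), in 1 of 14 variants, H2afx, and, anywhere in a transcript, in 103 of 19270 other protein-coding genes (0.535%), of which 8 have it within 100 nt after the stop codon. In clustered genes it lay 21 to 58 nt after the stop codon, with a median of 31 nt. A gene with no exact match can still form a hairpin with a mismatched stem. Several genes with no match, such as Hist1h2ai, Hist1h3h and Hist1h4k, are annotated only to the stop codon, so no hairpin could be found.

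The hairpins of the 6 clustered genes with the most counts among those that have one, of Hist4h4, which had few counts, and of H2afx are shown here with 5 flanking bases on each side, since they are the element by which the untailed mRNAs are formed (GENCODE M21 on GRCm38, stem in capitals, loop in lower case between the stems).
Hist1h1c: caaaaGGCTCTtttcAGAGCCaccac
Hist3h2a: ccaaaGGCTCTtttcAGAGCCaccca
Hist1h2be: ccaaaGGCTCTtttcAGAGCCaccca
Hist1h3b: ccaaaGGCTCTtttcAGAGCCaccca
Hist1h4h: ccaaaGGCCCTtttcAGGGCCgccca
Hist1h4i: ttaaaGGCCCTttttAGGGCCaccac
Hist4h4: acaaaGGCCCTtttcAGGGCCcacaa
H2afx: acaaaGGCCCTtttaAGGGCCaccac
The form of Hist1h1c, Hist3h2a, Hist1h2be and Hist1h3b was shared by 26 clustered genes, of classes other than H4, and that of Hist1h4h and Hist4h4 by 7, all of them H4 genes. The form of H2afx was not found in any other member.

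Several genes with counts have an annotated transcript that runs far past the hairpin. Hist1h1c (chr13:23738808-23740367, plus strand, a single exon) has its hairpin 24 nt after the stop codon and 840 nt of 3′ UTR after the hairpin. Hist3h2a (chr11:58954685-58956830, plus strand) has 1643 nt after the hairpin, although 33.0% of its exon overlaps Trim17 or Gm44313, so that its count is uncertain. H2afx (chr9:44334694-44336077, plus strand), the variant with a hairpin, has 822 nt after it. By contrast, the annotations of Hist1h3b and Hist1h4h end 51 and 46 nt after the hairpin.

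Hist1h2bc and Hist2h2be, both H2B genes, have no such hairpin in their annotated transcripts. Hist1h2bc (chr13:23684199-23692908, plus strand) is annotated with an intron of 7554 nt that begins 9 nt after the stop codon, followed by a last exon of 733 nt, so that the bases directly after its coding exon are not in this transcript. In the transcripts analysed, it was the only clustered gene with a junction after its stop codon, and 63 of 68 clustered genes have a single exon. Hist2h2be (chr3:96221119-96223738, plus strand) has a single exon with a 3′ UTR of 2192 nt.

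The hexamer AATAAA, the main signal for polyadenylation, was searched on the transcript strand in the last 50 nt of each annotated transcript of a gene. It was found in at least 1 transcript of 15 of 68 clustered genes (22.1%), 10 of 14 variants (71.4%) and 13738 of 19270 other protein-coding genes (71.3%). Those of 4 clustered genes and of H3f3b are shown with their flanks, with the hexamer in capitals, as the element of an ordinary tailed mRNA; in H3f3b it lies in a transcript other than the one with the longest reading frame.
Hist1h1c: gtgtatgcttctAATAAAaagcgtttagtt
Hist3h2a: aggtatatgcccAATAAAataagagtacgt
Hist2h2be: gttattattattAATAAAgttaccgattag
Hist4h4: tagaggagatgaAATAAAtac
H3f3b: ataggccttacaAATAAActagtaagtttg
Hist1h2bc, with the most clustered counts, had no AATAAA in this window. Clustered genes annotated only to the stop codon, such as Hist1h2ai, have no 3′ UTR in which the signal could be found.

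**Figure D3:**
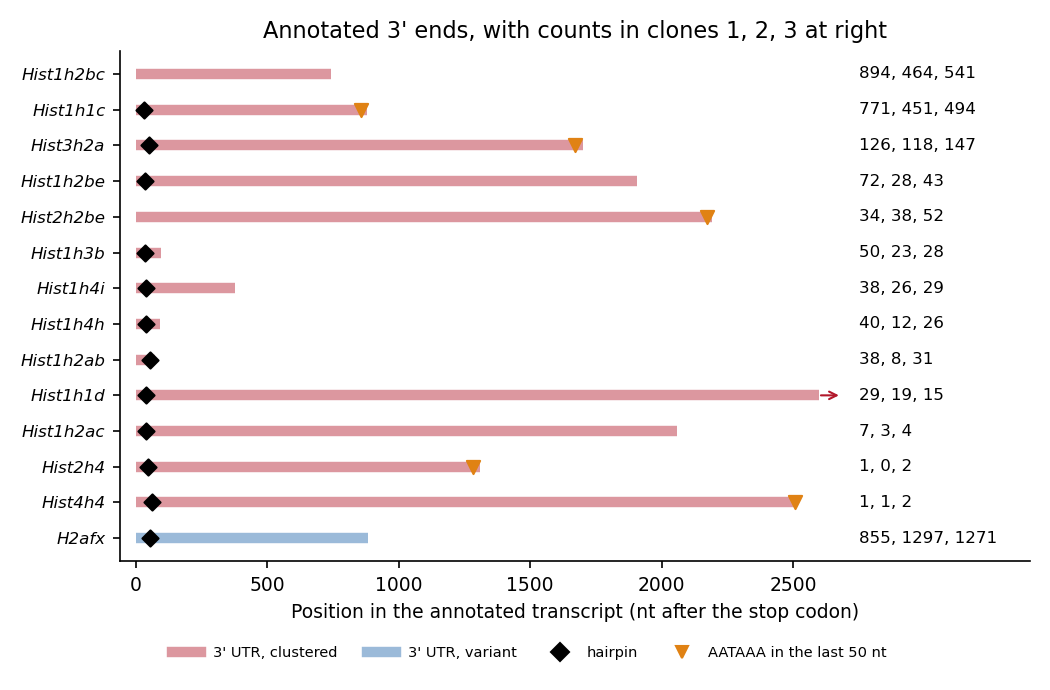
Annotated 3′ UTRs of 13 clustered genes and H2afx, drawn from the stop codon (horizontal axis, nt), with the hairpin as a diamond, AATAAA in the last 50 nt of the transcript drawn as a triangle (that of Hist1h2be is in another transcript), and counts in clones 1, 2 and 3 at the right; the arrow marks the 3′ UTR of Hist1h1d, of 4931 nt, which is not drawn to its end. The 5 genes with the most counts have long 3′ UTRs, and so do Hist1h2ac, Hist2h4 and Hist4h4, which had few.

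A 3′ UTR of at least 500 nt was annotated for 17 clustered genes, and these held 87.4% ± 1.98 of clustered counts (SD, n = 3). Most of this was on Hist1h2bc, Hist1h1c and Hist3h2a, with 1791, 1033 and 1182 of the 2000, 1149 and 1332 counts in clones 1, 2 and 3. Outside these 3 genes, the 51 clustered genes without such a 3′ UTR held 301, 133 and 221 of 510, 249 and 371 counts. Of the 17 genes, 5 were at 1 CPM or more in every clone, beside 2 of the 51 others. The 15 genes with AATAAA at the end held 47.8% ± 2.93 of the counts, most of them on Hist1h1c. Per kb of exon the median of these 15 was 0.0656, 0.0486 and 0.0512 CPM per kb in clones 1, 2 and 3. That of the 53 without AATAAA was higher, at 0.106, 0.0919 and 0.0963 CPM per kb. A long 3′ UTR did not go with counts in each gene: Hist4h4, with 2515 nt and AATAAA, had 1, 1 and 2 counts, Hist2h4, with 1311 nt and AATAAA, had 1, 0 and 2, and Hist1h2ac, with 2058 nt, had 7, 3 and 4. A longer transcript also offers more positions for reads, and per kb of exon the median of the 17 genes was 0.196, 0.113 and 0.139 CPM per kb against 0.0994, 0.0573 and 0.0892 for the 51 others.

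Clustered genes resemble each other, which limits what a count can show. The 67 clustered genes with a coding sequence encode 31 distinct proteins: the 13 H4 genes encode 1 protein, the 12 H3 genes 3, the 18 H2A genes 9 and the 6 H1 genes 6. Of the 86-nt stretches of a clustered transcript, a median of 63.8% matches another gene within 2 mismatches or lies where an annotated gene overlaps, with 12 genes that have no stretch of their own, against a median of 10.1% in variants. Alignment kept reads with up to 5 positions, and how the counting treated them is not stated in the sources used here, so a low count of a gene with few own stretches is uncertain. The 23 clustered genes with no more than 50% of their stretches shared held 90.6% ± 1.72 of clustered counts, and 6 of them were at 1 CPM or more in every clone, beside 1 of the 45 others. Hist1h2bc, Hist1h1c and Hist3h2a are among the 23 and had 1791, 1033 and 1182 of their 2072, 1187 and 1387 counts in clones 1, 2 and 3. Of the 23, 14 also have a 3′ UTR of at least 500 nt and held 87.4% ± 1.98 of clustered counts. The other 9 held 3.21% ± 0.297. All counts of genes with a long 3′ UTR thus came from genes with little shared sequence, and the part of each feature was not tested.

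**Figure D4:**
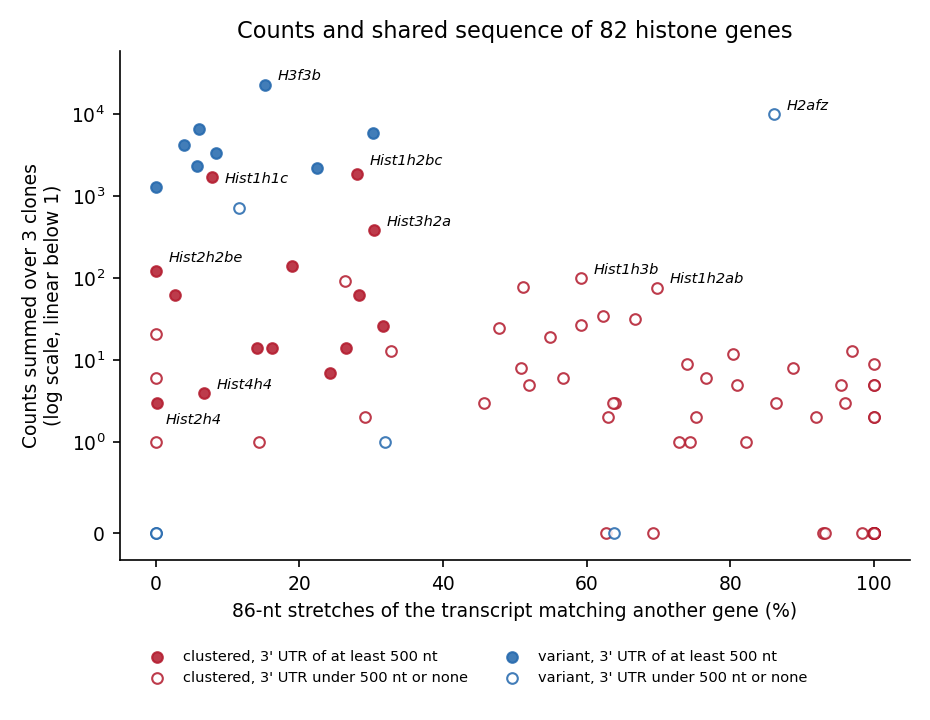
Counts summed over the 3 clones (vertical axis, log scale, linear below 1) against the percentage of 86-nt stretches of each annotated transcript that match another gene (horizontal axis), for 68 clustered (red) and 14 variant (blue) genes, filled where the 3′ UTR has at least 500 nt. Clustered genes with over 50% of their stretches shared reach at most the counts of Hist1h3b, while Hist4h4 and Hist2h4 are low with little shared sequence; some points at 100% and 0 counts lie on each other.

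Whether the histone genes differed between the clones was tested with a Pearson chi-square test of the 3 counts of each gene against the scaled library sizes, Benjamini-Hochberg adjusted over the 12218 genes whose lowest count among the clones was 10 or more. It compares 3 libraries and not conditions, and its p-values set the differences against counting error only, not against the spread between separate cultures, so that a gene with many counts passes at a small difference. Over all genes tested, 62.5% differed, 7.93% differed by at least 2-fold, 23.8% differed and were highest in clone 1, and 27.1% differed and were lowest in clone 1. Of the clustered genes, 6 of 10 tested differed, all 6 of them were highest in clone 1, and 3 differed by at least 2-fold. Of the variant genes, 10 of 10 differed, 9 of them were lowest in clone 1, and none reached 2-fold. The 6 of 10 is near the share of all genes, although of these 10 only Hist1h2bc and Hist1h1c had 200 counts or more in every clone. Variants have high counts, and of the 8423 genes that had 200 counts or more in each clone 70.6% differed and 31.7% differed and were lowest in clone 1.

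Hist1h2bc was at 36.0, 20.6 and 21.4 CPM in clones 1, 2 and 3, a 1.75-fold range (chi-square test, Benjamini-Hochberg adjusted p = 4.10e-30). Hist1h1c was at 31.0, 20.0 and 19.6 CPM, a 1.59-fold range (adjusted p = 6.29e-19). In both, clone 1 stood above clones 2 and 3, which lay close together. Hist1h2be and Hist1h4h ranged 2.33-fold and 3.03-fold (adjusted p = 3.32e-04 and 0.00338), and Hist1h3b 1.97-fold (adjusted p = 0.00957), all highest in clone 1 and lowest in clone 2. Hist1h3d, chosen after its values were seen, had 38, 14 and 11 counts (adjusted p = 1.49e-04). Hist3h2a (adjusted p = 0.549), Hist1h4i (0.466), Hist2h2be (0.227) and Hist1h1d (0.13) did not pass the test.

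H2afz was at 101, 161 and 161 CPM, H2afx at 34.4, 57.5 and 50.3 CPM, and H2afy2 at 22.5, 32.3 and 37.9 CPM (adjusted p = 5.18e-89, 1.47e-30 and 5.27e-21). In all 3 genes clone 1 was the lowest, with ranges of 1.59-fold, 1.67-fold and 1.68-fold. H3f3b and H3f3a ranged less, by 1.09-fold and 1.11-fold (adjusted p = 3.14e-06 and 0.0107). H2afj was at 35.5, 32.2 and 29.5 CPM and was highest in clone 1 (adjusted p = 0.00204).

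**Figure D5:**
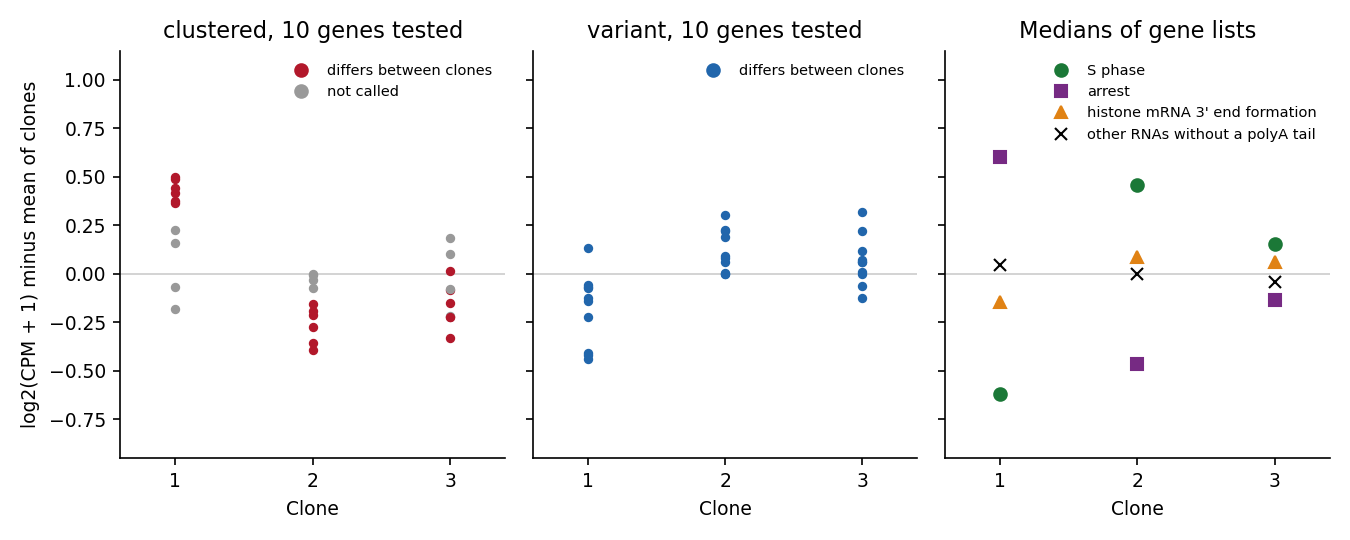
Difference between log2(CPM + 1) in a clone and its average over the 3 clones (vertical axis) by clone (horizontal axis) for the 10 clustered and 10 variant genes tested, grey where a gene did not pass the test, and for the medians of 4 gene lists. Clustered genes lie mostly above 0 in clone 1 and variants mostly below, and the medians of the S phase and arrest lists lie at opposite sides of 0 in clone 1.

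On the log2(CPM + 1) scale, which understates the change of low genes, the median deviation of the 9 clustered genes that averaged 1 CPM or more was 0.36, -0.21 and -0.08 in clones 1, 2 and 3, that of the 10 variants was -0.13, 0.09 and 0.06, and that of all such genes was within 0.01 of 0. Without clone 1, no clustered gene passed the chi-square test with Benjamini-Hochberg adjustment and none had an unadjusted p under 0.05, and 4 variants passed. The range of Hist1h2bc between clones 2 and 3 alone was 0.055, that of Hist1h1c 0.031 and that of H2afz 0.0024 on the log2(CPM + 1) scale.

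Genes of the S phase list were lower in clone 1, where the summed clustered histone counts were higher. Of the 9 clustered genes that averaged 1 CPM or more, 7 were highest in clone 1, while Hist3h2a and Hist2h2be were lowest there. All 17 genes of DNA replication, nucleotide supply and S phase entry differed between the clones and were lowest in clone 1, against 27.1% of all genes tested, with Rrm1 at 2401, 4959 and 4330 counts and Rrm2, the other ribonucleotide reductase subunit, at 1567, 3272 and 3237. The lowest of them, Ccne2, which encodes a cyclin of S phase entry, had 107, 350 and 317 counts. The 3 cell cycle inhibitors Cdkn1a (10527, 7710 and 9571 counts), Cdkn2a (2349, 834 and 1118) and Cdkn2b (1708, 729 and 1033) differed and were highest in clone 1, against 23.8% of all genes tested. The part of the cell cycle in the histone values was not tested.

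The 13 genes listed for histone mRNA 3′ end formation, not all of them specific to it, all had at least 10 counts per clone. Of them, 8 differed between the clones, 7 of them lowest in clone 1, against 62.5% and 27.1% of all genes tested. Slbp, which encodes the hairpin-binding protein, had 524, 723 and 766 counts (adjusted p = 3.41e-13, chi-square test). Sympk, the scaffold of the cleavage complex, was the highest of them with 4632, 3749 and 4398 counts and differed with its highest level in clone 1, and Srrt, with 3359, 3052 and 3303, did not pass the test. Lsm10, a subunit of the U7 particle, had 264, 207 and 232, and Zfp473, which is needed for histone pre-mRNA cleavage, had 15, 15 and 23, and neither passed.

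Of 17 histone chaperone and exchange genes, 14 differed, 11 of them lowest in clone 1, against 62.5% of all genes tested that differed and 27.1% that differed and were lowest in clone 1. Nap1l1, an H2A-H2B chaperone, had 6889, 8611 and 9716 counts, and Ssrp1, a subunit of FACT, had 4269, 5465 and 5880. Hjurp, the chaperone of the centromeric H3, had 190, 212 and 216, Asf1a, an H3-H4 chaperone, had 182, 196 and 232, and neither passed.

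Other RNAs that lack a polyA tail were looked at as a measure of untailed RNA in each library. Of 117 small nucleolar and similar RNAs in the table, 30 averaged 1 CPM or more, and 16 had no count. Their summed level was 996, 536 and 688 CPM, and most of it was Malat1, a nuclear RNA whose end is formed without a polyA tail but is rich in encoded A, with 22386, 10177 and 15185 counts. Without Malat1, the other 116 RNAs summed to 94.99, 84.8 and 86.7 CPM. Of 45 tested, 6 differed, 5 of them highest in clone 1, against 62.5% and 23.8% of all genes tested, and the median deviation of the list was 0.05, 0.00 and -0.04 on the log2(CPM + 1) scale. Snora65, the next in level, had 214, 207 and 213 counts, and many of these RNAs lie inside introns or exons of other genes, so their counts are uncertain. The part of retained untailed RNA in the clustered counts was not tested.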

How the data were processed

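PolyA+ RNA of 3 WT MEF clones was sequenced as 86-nt single-end reads. The authors aligned them by TopHat (2.0.0), which ran on Bowtie (0.12.7), with Samtools (0.1.16), at most 2 mismatches and 5 multi-hits, and the deposited values are raw counts per gene from HTSeq. Its version, annotation and strand setting are not given in the sources used here. The methods name mm10 genes and the submitters' processing notes mm9, and the table holds no coordinates.

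CPM used library sizes scaled by TMM (edgeR 4.0.16, R 4.3.3). Genes whose lowest count was 10 or more entered the chi-square test (2 degrees of freedom, adjusted p under 0.05). It was tried on simulated counts that varied by counting error only, so the simulation does not cover the spread between cultures. Positions, lengths and sequences came from GENCODE M21 (GRCm38), matched by symbol for 21123 of 21782 genes and all 82 members. Shared stretches were 86-nt windows of the transcript with the longest reading frame that match another annotated gene on either strand with up to 2 mismatches, or overlap one.

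The members and lists were chosen with earlier results of these data known. Named genes were the variants with at least 10 counts in a clone, the 10 highest clustered genes, the highest of each class, the called genes with the largest ranges, germ cell genes, Hist3 and Hist4 genes, and the 2 highest and 2 lowest of each list. A gene under this rule is not reported here. Alternatives are given at the end.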

Additional observations from a re-analysis of the deposited data

How the results depend on the processing

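The number of clustered genes detected was 7 at 1 CPM and 19 with more than 3 counts in every clone, and leaving out each clone gave 7 to 9. The variant share of histone counts was 92.1%. It was 79.8% without H3f3b, H2afz and H2afy, 84.9% per kb of exon, 88.1% per kb of transcript and 98.1% without Hist1h1c, Hist1h2bc and Hist3h2a (chosen after seeing the data), and 91.2 to 93.7% with each clone left out. The log2 ratio of medians was 5.94 with unique 86-nt stretches as length, 4.89 over members with more than 3 counts in every clone, 2.55 for summed levels, and 7.06 to 7.38 with each clone left out. Clustered genes that differed numbered 6, of 10 tested, with 8 of 33 tested at a minimum of 1 count in every clone, 9 of 24 at 10 counts summed over clones, 2 of 4 at a minimum of 30 counts, 3 at 2-fold and 0 to 6 with each clone left out, where 0 is without clone 1. Variants that differed numbered 10, with 0 at 2-fold, where all 10 passed the test itself, and 4 to 8 with each clone left out, where 4 is without clone 1. The span of median deviations was 0.0622 to 0.609 for clustered and 0.033 to 0.266 for variant genes with each clone left out, lowest without clone 1. Other size factors changed no call count, and no result reversed. Of the named genes, H1f0, H1fx, H2afj, H2afy, H2afz, H3f3a, Hist1h1c, Hist1h2bc, Hist1h2be, Hist1h3b and Hist1h4h no longer passed without clone 1, H1fx, H2afv, H2afy and Hist1h4h without clone 2, and H2afj and H3f3a without clone 3. No paired analysis was possible because the samples are of 1 group. At these depths a clustered gene with no count cannot be told from one under 3 counts. A gene with no 86-nt stretch of its own may have a higher level still.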
